A study of Mus musculus with 28 samples.

Results

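The genes described here are the 10 named members of the mouse cytotoxic granule protease and pore family that were followed in these tumors, namely Gzma, Gzmb, Gzmc, Gzmd, Gzme, Gzmf, Gzmg, Gzmk and Gzmn, which encode granzymes, and Prf1, which encodes perforin. They were chosen by name out of 55341 genes listed in each count table, with their levels in these tumors already known, so no p-value is given for a single member, and counts of members past a threshold are read as a description beside the share of all genes. Of the 10 genes, 9 passed the filter on low counts and were fitted, and Gzmn did not.

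The study asked how chemotherapy combines with immune checkpoint blockade (ICB), which here means antibodies that block CTLA-4 and PD-L1 on or around T cells. AB1-HA cells, a mouse mesothelioma line that carries an influenza hemagglutinin antigen, were grown under the skin of the flank of BALB/c.AusBP mice, and whole tumors were sequenced as bulk RNA 7 days after treatment began, 1 tumor per mouse. The 28 tumors analysed here fell into 6 groups. The PBS group (n = 4) received vehicle, the ICB group (n = 5) received 100 µg each of anti-CTLA-4 and anti-PD-L1 followed by 2 further doses of anti-PD-L1, the 5-FU group (n = 5) received 75 mg/kg of the antimetabolite 5-fluorouracil, and the cisplatin group (n = 4) received 6 mg/kg of the DNA-crosslinking drug cisplatin. The 5-FU+ICB group (n = 5) and the cisplatin+ICB group (n = 5) received both kinds of treatment. All groups share 1 transplanted cell line and 1 mouse strain, and the tumors sat under the skin and not in the pleura.

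Granzymes are serine proteases that cytotoxic T cells and natural killer (NK) cells store in secretory granules. When such a cell meets its target, the granules are released into the contact zone, perforin assembles into pores in the target membrane, and the granzymes that enter cleave intracellular proteins. Granzyme B cuts after aspartate and activates caspases and Bid, granzymes A and K are tryptases that cut after basic residues, and granzymes C to G are rodent proteases, related to granzyme B, that are known from strongly activated T cells, killer cells grown in cytokine and granular cells of the pregnant uterus.

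The genes sit at 3 places in the genome (GENCODE M21 annotation, GRCm38). Gzmb (chr14:56258838-56262260), Gzmc (chr14:56231441-56234656), Gzmf (chr14:56205263-56211417), Gzmn (chr14:56165797-56174599), Gzmg (chr14:56156582-56159579), Gzmd (chr14:56129556-56132608) and Gzme (chr14:56117626-56120625) lie side by side on the minus strand of chromosome 14, with Ctsg, the gene of the neutrophil and mast cell protease cathepsin G, at the end of the row beside Gzme. Gzma (chr13:113093825-113100981) and Gzmk (chr13:113171608-113225908) lie on chromosome 13, and Prf1 (chr10:61297833-61304680) lies on chromosome 10. The coding sequences of Gzmd and Gzme were 93.3% identical, those of Gzme and Gzmg 89.3% and those of Gzmd and Gzmf 83.3%, against 75.6% for Gzmb and Gzmc and 49.6% for Gzma and Gzmk. Of all stretches of 31 bases in the longest coding transcript, the share found in a transcript of another gene too was 38.2% for Gzmd, 42.1% for Gzme, 34.9% for Gzmf, 33.8% for Gzmg, 14.8% for Gzmc and 1.35% for Gzmb, and it was 0% for Gzma and Gzmk. A window as long as a read (100 bases) was shared with another gene at 55 of 820 positions in Gzmf, all with the gene model Gm4022, and at 2 positions in each of Gzmd and Gzmg. Counts of Gzmd, Gzme, Gzmf and Gzmg (Gzmd to Gzmg below) may therefore have been split among paralogs, and they were also fitted as 1 summed feature.

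The 200 bases before the start of 8 of these genes are shown because Gzmd to Gzmg varied together more closely than they did with Gzmb, Prf1 or Gzmk. They come from RefSeq (GRCm38.p6), run 5′ to 3′ on the strand of the gene, end at the base before the RefSeq start, and carry in capitals each match to TGTGGT or its reverse complement ACCACA, the core recognized by RUNX factors, which include the T cell and NK cell factor Runx3. The windows lie at chr14:56262335-56262534 (Gzmb), chr14:56234658-56234857 (Gzmc), chr14:56132594-56132793 (Gzmd), chr14:56120626-56120825 (Gzme), chr14:56211408-56211607 (Gzmf), chr14:56159580-56159779 (Gzmg) and chr13:113180966-113181165 (Gzmk), all on the minus strand, and at chr10:61297636-61297835 (Prf1), on the plus strand. For Gzmk the RefSeq start lies inside the GENCODE gene given above, where a transcript begins farther upstream, so the printed window is inside that gene.
Gzmb: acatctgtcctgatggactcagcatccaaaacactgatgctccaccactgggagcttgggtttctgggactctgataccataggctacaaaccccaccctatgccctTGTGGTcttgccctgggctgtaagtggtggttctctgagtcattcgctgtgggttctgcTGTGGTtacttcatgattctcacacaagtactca
Gzmc: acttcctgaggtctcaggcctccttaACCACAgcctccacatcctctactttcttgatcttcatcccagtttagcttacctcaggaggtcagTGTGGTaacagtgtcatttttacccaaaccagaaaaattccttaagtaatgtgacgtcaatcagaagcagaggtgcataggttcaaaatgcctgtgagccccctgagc
Gzmd: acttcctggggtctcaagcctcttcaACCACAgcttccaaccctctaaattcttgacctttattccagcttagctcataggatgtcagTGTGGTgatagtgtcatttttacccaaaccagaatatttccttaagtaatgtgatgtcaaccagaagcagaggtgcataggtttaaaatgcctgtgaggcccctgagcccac
Gzme: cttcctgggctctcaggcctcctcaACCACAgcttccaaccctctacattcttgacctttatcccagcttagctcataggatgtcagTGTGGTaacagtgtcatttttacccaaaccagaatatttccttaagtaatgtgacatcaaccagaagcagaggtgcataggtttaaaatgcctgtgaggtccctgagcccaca
Gzmf: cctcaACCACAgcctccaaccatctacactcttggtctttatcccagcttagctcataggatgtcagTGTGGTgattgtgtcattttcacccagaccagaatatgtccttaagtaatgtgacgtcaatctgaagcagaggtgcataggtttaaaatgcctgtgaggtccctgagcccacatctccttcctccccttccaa
Gzmg: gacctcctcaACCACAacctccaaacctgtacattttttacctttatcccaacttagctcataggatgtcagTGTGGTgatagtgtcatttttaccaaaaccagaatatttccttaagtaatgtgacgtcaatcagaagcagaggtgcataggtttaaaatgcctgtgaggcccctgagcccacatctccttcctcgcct
Gzmk: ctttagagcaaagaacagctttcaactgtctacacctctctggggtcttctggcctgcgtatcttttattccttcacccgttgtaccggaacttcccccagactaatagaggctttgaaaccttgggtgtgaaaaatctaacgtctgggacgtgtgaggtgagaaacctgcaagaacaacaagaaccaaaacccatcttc
Prf1: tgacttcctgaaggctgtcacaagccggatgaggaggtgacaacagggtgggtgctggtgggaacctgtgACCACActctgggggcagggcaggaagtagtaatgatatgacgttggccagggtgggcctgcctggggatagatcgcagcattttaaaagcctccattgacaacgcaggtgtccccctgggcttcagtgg

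The windows of Gzmc, Gzmd, Gzme, Gzmf and Gzmg each held 2 matches, first ACCACA and then TGTGGT, and the same 2 stretches can be followed down the 5 lines. Gzmb held 2 matches, both TGTGGT and closer to the start, Prf1 held 1, Gzma held 1 (window not printed), and neither Gzmk nor Gzmn held any. At least 1 match occurred in 11.2% of 32851 mouse promoter windows of the same length and at least 2 in 0.868%. Since the 5 windows of Gzmc to Gzmg resemble each other, their matches do not count as separate ones beside that share. The letters TGANTCA (AP-1) matched in Gzmb alone of the 10 genes (5.48% of all windows), and GGTGTGA or its reverse complement TCACACC (T-box site) matched in Gzmk alone (2.64%). Neither motif overlapped a printed RUNX core. The windows of Gzmd and Gzme were 94.0% identical, those of Gzmf and Gzmg 86.3% and those of Gzmc and Gzmd 84.8%, whereas the Gzmb window shared 46.3% with that of Gzmd. These are matches of letters in a window and not measured binding sites.

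Library totals ran from 23541733 to 33950805 estimated counts and levels are given as CPM, counts scaled to the library size after adjustment by the trimmed mean of M-values. A count of 3, taken as the floor, equals 0.0822 to 0.159 CPM. Msln, a mesothelioma marker, stood at 271 to 358 CPM in PBS tumors, Wt1 stayed at or below 2.78 CPM in all tumors, and Upk3b was at or near 0 throughout. Of the 28 libraries, 2 stood apart: 5-FU+ICB replicate 5 had 0.50 CPM of Msln with 304 CPM of Cd8a, and cisplatin+ICB replicate 1 had 654 CPM of Msln with 2.81 CPM of Cd8a. Values without them are given beside the fold changes, ratios and coefficients below that they bear on. In bulk tumor RNA, fewer cells of a type and less RNA per cell cannot be told apart.

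The first comparison asks how the family responds to checkpoint blockade alone. Each of the 9 fitted genes was higher in every ICB tumor than in any PBS tumor, a separation that 15.8% of all genes tested showed in this direction. In the ICB tumors the levels of Gzmd, Gzme, Gzmf and Gzmg were 22.7, 22.6, 44.7 and 39.4 times those in PBS tumors by the fit, against 3.05 times for Gzma and 6.66 times for Gzmb. All values below are in replicate order within a group, and ± follows a mean with its SD or a log2 fold change with its standard error (SE).

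Prf1, the pore, stood at 11.2, 11.4, 8.06 and 11.2 CPM in the 4 PBS tumors and at 97.3, 169, 132, 89.1 and 145 CPM in the 5 ICB tumors. The PBS tumors lay close together and the lowest ICB tumor lay far above them. The log2 fold change was 3.61 ± 0.45.

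Among the granzymes with a tryptase activity, Gzma stood at 14.4, 22.7, 8.71 and 13.2 CPM in PBS tumors and at 59.2, 77.5, 30.0, 25.7 and 30.6 CPM in ICB tumors. These groups did not overlap, but the highest PBS tumor and the lowest ICB tumor were near each other, and the log2 fold change was 1.61 ± 0.45. Gzmk was close to the floor in PBS tumors, at 0.365, 0.475, 0.253 and 0.299 CPM, and stood at 3.68, 2.74, 7.03, 1.43 and 6.05 CPM in ICB tumors, a log2 fold change of 3.57 ± 1.05. Although the groups were fully separated, Gzmk had the lowest level per kilobase of transcript of the 9 fitted genes in ICB tumors, 3.21 CPM per kb against 44.8 for Gzma.

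Gzmb, the caspase-activating granzyme, stood at 15.9, 24.3, 9.69 and 17.3 CPM in PBS tumors and at 118, 148, 99.0, 91.1 and 101 CPM in ICB tumors, a log2 fold change of 2.74 ± 0.29. Gzmc, its nearest neighbor on chromosome 14, stood at 26.8, 40.6, 21.8 and 29.8 CPM in PBS tumors and at 128, 187, 52.1, 88.1 and 124 CPM in ICB tumors, a log2 fold change of 1.98 ± 0.39. Both genes were detected in every PBS tumor, and neither overlapped between these groups.

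The 4 paralogs next to them started low and varied widely among PBS tumors. Gzmd stood at 1.74, 20.3, 5.20 and 1.53 CPM in PBS tumors and at 137, 312, 53.9, 104 and 218 CPM in ICB tumors (4.51 ± 0.86 on the log2 scale). Gzme stood at 0.365, 7.42, 2.13 and 0.565 CPM in PBS tumors and at 51.3, 110.1, 23.8, 35.8 and 78.6 CPM in ICB tumors (4.50 ± 0.85). In both genes PBS replicate 2 was the highest of its group and ICB replicate 2 the highest of all 28 tumors. Gzmf stood at 0.487, 9.63, 3.65 and 1.40 CPM in PBS tumors and at 118, 322, 57.1, 113 and 239 CPM in ICB tumors (5.48 ± 0.92). Gzmg stood at 0.406, 12.6, 3.25 and 0.365 CPM in PBS tumors and at 121, 329, 39.7, 109 and 231 CPM in ICB tumors (5.30 ± 1.17). PBS and ICB tumors did not overlap in any of the 4 genes. Summed into 1 feature they gave a log2 fold change of 4.97 ± 0.94, and without PBS replicate 2 the value for Gzmd was 5.95 ± 0.87 and that for Gzmg 7.04 ± 1.29.

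Gzmn, known from testis, was at 0 counts in all 4 PBS tumors, which allows up to 0.0997 to 0.122 CPM, and in all 5-FU+ICB tumors, which allows up to 0.0928 to 0.150 CPM. Its level was 0.204, 0.143, 0.0789, 0.0609 and 0.113 CPM in the ICB tumors, and the highest of all tumors was cisplatin+ICB replicate 4 at 0.402 CPM from 13 counts. ICB replicates 3, 4 and 5 had 2, 2 and 3 counts, within what 0 counts allow in the PBS tumors. ICB replicates 1 and 2 lay above it, so any difference between these groups for Gzmn rests on few counts. Of the stretches of 31 bases in Gzmn, 13.9% were found in a transcript of another gene too. No fold change is given for Gzmn.

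A differentially expressed gene (DEG) was one with a Benjamini-Hochberg adjusted p under 0.05 over all genes tested and an absolute log2 fold change over 0.5, by edgeR's quasi-likelihood test. In ICB against PBS all 9 fitted members passed this rule as higher, beside 19% of the 17916 genes tested that were called higher and 18.8% that were called lower. The median log2 fold change of the 9 was 3.61, and that of all genes tested was -0.03. Since the members were chosen with these levels known, nothing is read from the count. All 9 passed in each of the fits that left out 1 of the compared tumors.

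**Figure D1:**
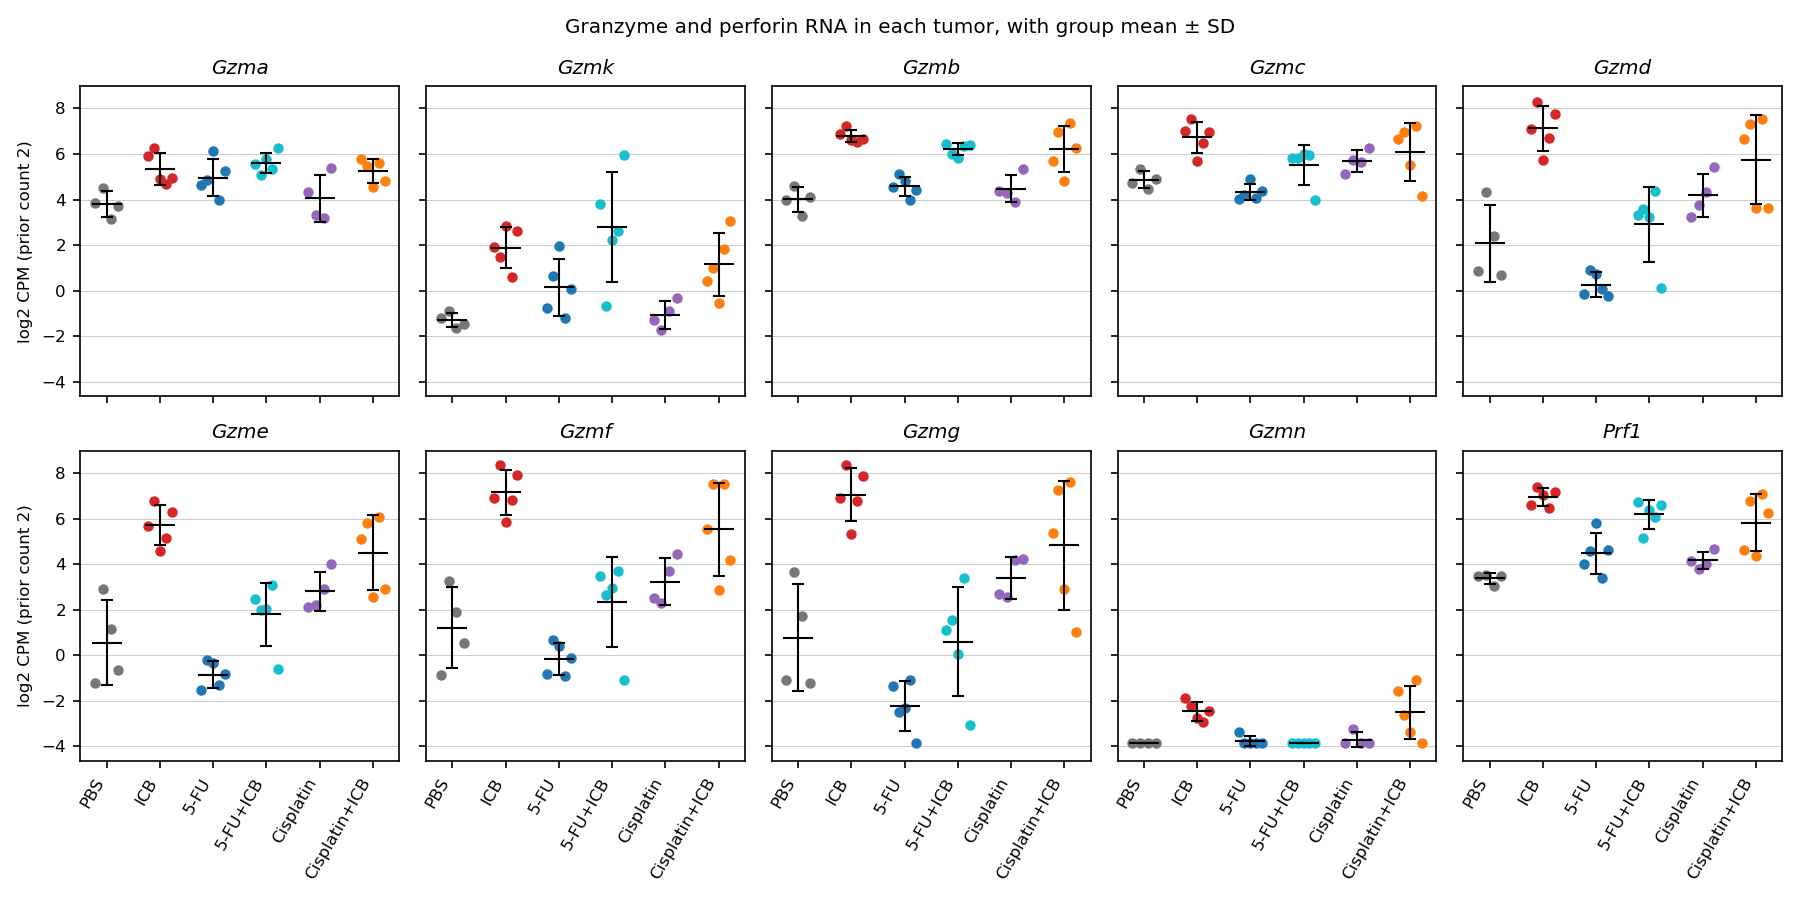
Log2 CPM (prior count 2) of each gene in each of the 28 tumors (points), by treatment group, with the group mean ± SD (bars). The ICB tumors lie above the PBS tumors in the panels of the 9 fitted genes, and Gzmd, Gzme, Gzmf and Gzmg are far lower in 5-FU+ICB than in ICB while Gzma and Gzmk overlap. The lowest points for Gzmn are tumors with 0 counts, and its ICB tumors rest on a few counts each.

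The 5-FU tumors set the effect of this drug alone against PBS, and there the fitted values had both signs. They were positive for Gzma, Gzmb, Gzmk and Prf1 and negative for Gzmc, Gzmd, Gzme, Gzmf and Gzmg, and for every member the 5-FU tumors overlapped the PBS tumors. Gzma stood at 24.7, 28.6, 70.4, 15.7 and 37.8 CPM in the 5-FU tumors (1.25 ± 0.44) and Prf1 at 15.8, 23.6, 56.7, 10.5 and 24.7 CPM (1.33 ± 0.41). For both genes 5-FU replicate 3 was the highest and replicate 4 lay within the PBS range. Gzmb was at 23.1, 34.6, 28.4, 15.6 and 21.2 CPM (0.54 ± 0.27) and Gzmc at 16.4, 18.3, 30.2, 16.9 and 20.5 CPM (-0.54 ± 0.37), both overlapping the PBS tumors. Gzmk was at 0.521, 1.51, 3.79, 0.367 and 0.968 CPM (2.01 ± 1.01), again highest in replicate 3. With each tumor left out in turn, the Gzmk value ran from 1.25 to 2.27.

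The 4 paralogs Gzmd to Gzmg were low in all 5-FU tumors. Gzmd stood at 0.822, 1.83, 1.60, 0.978 and 0.789 CPM (-2.63 ± 0.79), Gzme at 0.274, 0.791, 0.713, 0.336 and 0.502 CPM (-2.38 ± 0.80) and Gzmf at 0.493, 1.51, 1.25, 0.458 and 0.861 CPM (-2.10 ± 0.82). Gzmg stood at 0.329, 0.108, 0.134, 0.397 and 0 CPM (-4.37 ± 1.22), with 3 of the 5 tumors at or under the 3-count floor. The 5-FU tumors overlapped the lower PBS tumors in all 4 genes, for Gzmg with PBS replicate 4 alone. Without PBS replicate 2 the log2 fold change of Gzmd was -1.18 ± 0.70 and that of Gzmg -2.62 ± 1.19.

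By the DEG rule 2 members were higher (Gzma and Prf1) and 3 lower (Gzmd, Gzme and Gzmg) in 5-FU against PBS, beside 9.98% of genes tested called higher and 13% called lower. No member passed without PBS replicate 2, 2 passed without 5-FU replicate 3 or without 5-FU replicate 5, and 3 passed without PBS replicate 1 or without PBS replicate 3. Over all genes 4115 were called with every tumor, and 1436, 2947, 2512, 1919 and 4741 in these fits in the same order. In the model of all 28 tumors no member passed and 825 genes were called.

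In cisplatin tumors, which set that drug alone against PBS, the fitted values of all 9 genes were positive and none passed the DEG rule. Gzmd stood at 9.22, 13.6, 20.0 and 43.1 CPM (1.58 ± 0.92), Gzmf at 5.56, 4.80, 13.1 and 21.7 CPM (1.58 ± 0.95) and Gzmg at 6.37, 5.75, 18.0 and 18.7 CPM (1.56 ± 1.17). In each of these the 4 cisplatin tumors lay above all 5-FU tumors, and PBS replicate 2 lay within the cisplatin range. The share of all genes tested that were so separated between cisplatin and 5-FU was not determined. Prf1 stood at 17.7, 13.9, 16.2 and 25.4 CPM (0.81 ± 0.46) and was the one member whose cisplatin and PBS tumors did not overlap, beside 1.53% of all genes tested that were higher without overlap. Gzma was at 19.9, 9.98, 9.02 and 42.3 CPM, Gzmb at 20.9, 19.3, 14.9 and 39.9 CPM and Gzmk at 0.344, 0.229, 0.470 and 0.740 CPM, all overlapping PBS. No member was a DEG by edgeR, beside 0% of genes tested called higher and 0% called lower. Without cisplatin replicate 4 the log2 fold change was -0.21 for Gzma and -0.03 for Gzmk. Without PBS replicate 2 it was 2.93 ± 0.97 for Gzmd, 2.61 ± 1.05 for Gzmf and 3.18 ± 1.30 for Gzmg, and no member passed. Of the members 0 had an unadjusted p under 0.05 (317 of all genes), and DESeq2 called 0 members and 3 genes in all.

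The comparison of 5-FU+ICB with ICB, which asks what 5-FU adds to checkpoint blockade, gave fitted values from -5.62 for Gzmg to 2.07 for Gzmk. Compared with ICB alone, Gzmd to Gzmg were lower in all 5-FU+ICB tumors than in any ICB tumor, as were 1.67% of all genes tested, whereas Gzma, Gzmk and Prf1 overlapped. Gzmd stood at 9.79, 11.8, 9.20, 20.5 and 1.00 CPM in 5-FU+ICB tumors, a log2 fold change against ICB of -3.98 ± 0.76. Gzme stood at 5.40, 3.91, 4.01, 8.38 and 0.600 CPM (-3.74 ± 0.74). For both, replicate 5 was the lowest, within the range of 5-FU alone, and replicate 4 the highest. Gzmf stood at 11.2, 6.17, 7.78, 13.1 and 0.400 CPM (-4.46 ± 0.79) and Gzmg at 2.08, 2.82, 0.973, 10.5 and 0.050 CPM (-5.62 ± 1.07). The summed feature fell by 4.43 ± 0.83 on the log2 scale. Without 5-FU+ICB replicate 5 its value was -4.14 ± 0.78, and the values were -3.69 ± 0.72 for Gzmd, -4.16 ± 0.71 for Gzmf and -5.32 ± 1.05 for Gzmg.

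The other members stood nearer to their ICB level in this combination. Gzmb stood at 87.0, 64.3, 56.9, 82.1 and 83.5 CPM, below every ICB tumor but by less (-0.58 ± 0.25). Gzmc stood at 56.9, 56.0, 64.3, 61.9 and 15.6 CPM (-1.20 ± 0.36), with replicate 5 far below the other 4. Prf1 stood at 107, 35.8, 83.4, 66.9 and 96.0 CPM (-0.70 ± 0.37) and Gzma at 47.1, 33.4, 54.3, 40.5 and 75.6 CPM (0.16 ± 0.40). Both overlapped the ICB tumors. Gzmk stood at 13.9, 0.558, 4.62, 6.10 and 61.6 CPM (2.07 ± 0.86), ranging from just above the PBS tumors in replicate 2 to the highest value of any tumor in replicate 5. Without replicate 5 the value was -0.97 ± 0.30 for Gzmc, -0.63 ± 0.27 for Gzmb, -0.79 ± 0.40 for Prf1 and -0.05 ± 0.42 for Gzma, the last with the sign turned. The Gzmk value was then 0.59 ± 0.70.

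By the DEG rule 4 members (Gzmd, Gzme, Gzmf and Gzmg) were lower in 5-FU+ICB than in ICB and none was higher, beside 0.162% of genes tested called lower and 0.067% called higher. This count depended on single tumors. It was 0 without 5-FU+ICB replicate 1 or 3 (3 and 20 of all genes, against 41 with every tumor) and 0 without ICB replicate 2, 4 or 5 (9, 1 and 9 of all genes). It was 1 without 5-FU+ICB replicate 2 or ICB replicate 1 (40 and 24 of all genes) and 3 without 5-FU+ICB replicate 5 (37 of all genes), while the log2 fold changes themselves ranged from -4.41 to -3.59 for Gzmd and from -6.81 to -5.18 for Gzmg over the same fits.

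Against PBS, 5-FU+ICB tumors had more Gzma (1.77 ± 0.45), Gzmb (2.16 ± 0.28), Gzmk (5.65 ± 1.14) and Prf1 (2.91 ± 0.43), and none of these overlapped PBS, beside 10.9% of all genes tested that were higher without overlap. Gzmd (0.53 ± 0.74), Gzme (0.76 ± 0.74), Gzmf (1.03 ± 0.77) and Gzmg (-0.32 ± 0.97) overlapped PBS. Without 5-FU+ICB replicate 5 the value for Gzmk was 4.17 ± 0.88, and without PBS replicate 2 the values were 1.97 ± 0.72 for Gzmd and 1.42 ± 1.02 for Gzmg, the latter with the sign turned. The DEG rule was passed by the first 4, all higher, beside 21.9% of genes tested called higher and 18.7% called lower. Against 5-FU alone every fitted member had a positive log2 fold change, from 0.51 for Gzma to 4.05 for Gzmg. Gzmb was the one member whose 5-FU+ICB and 5-FU tumors did not overlap (1.62 ± 0.25) and the one that passed the rule, beside 0.91% of genes tested that were higher without overlap and 0.0112% of genes tested called higher and 0% called lower. The number that passed was 8 without 5-FU+ICB replicate 2 (1948 of all genes), 6 without 5-FU replicate 3 (640 of all genes), and 0 without 5-FU replicate 1, 4 or 5 or without 5-FU+ICB replicate 1, 3, 4 or 5, where 0 to 2 of all genes were called. These 3 comparisons share tumors with each other and with ICB against PBS.

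**Figure D2:**
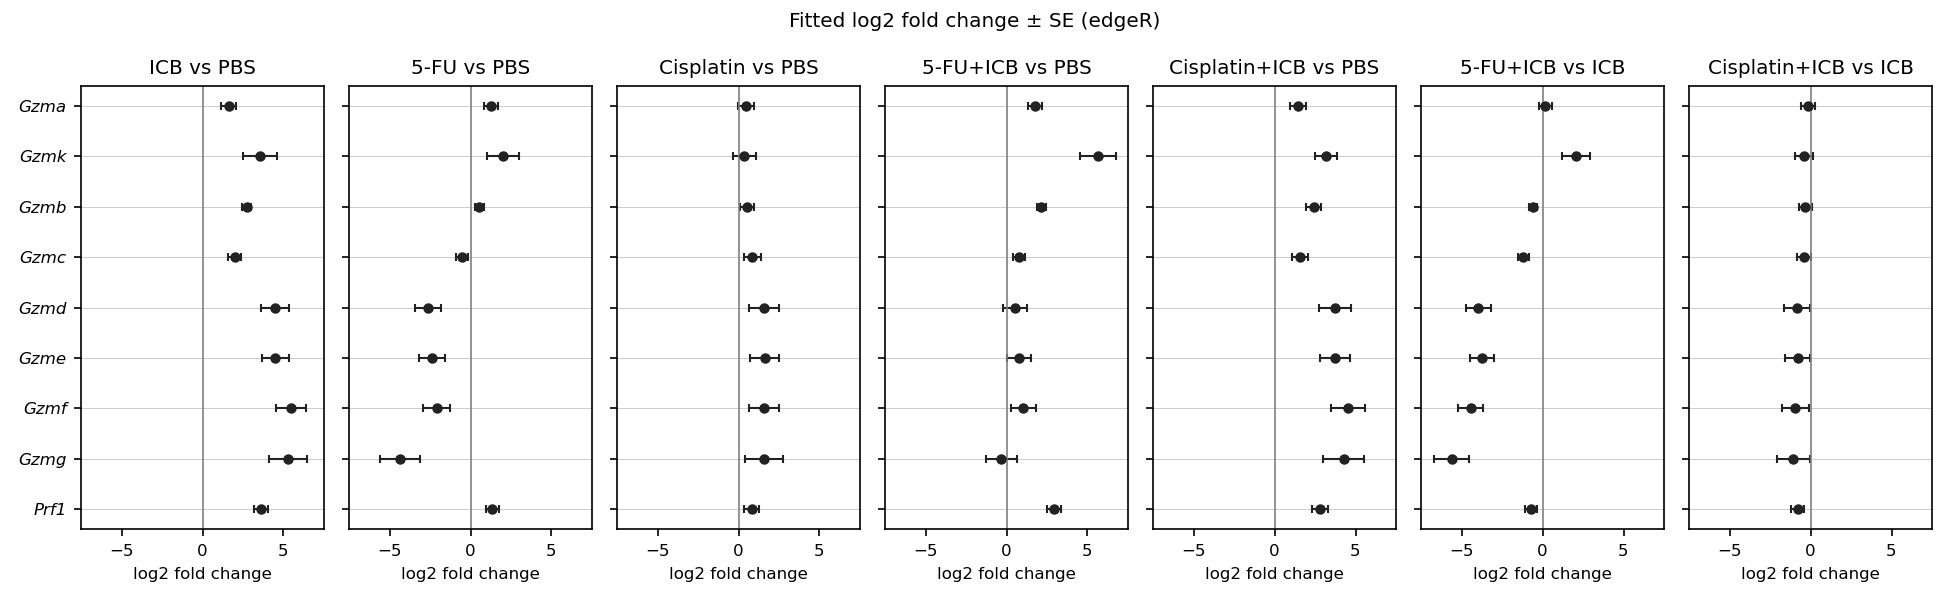
Fitted log2 fold change (point) ± SE (bar) of the 9 fitted genes in 7 comparisons, from edgeR. Gzmd, Gzme, Gzmf and Gzmg lie above 0 in ICB against PBS and below 0 in 5-FU+ICB against ICB, where Gzmk and Gzma do not (Gzma is at -0.05 without 5-FU+ICB replicate 5), and the values for cisplatin+ICB against ICB lie between -1.07 and -0.15.

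The cisplatin+ICB tumors differed widely among themselves. Gzmd stood at 100.0, 159, 12.3, 186 and 12.4 CPM, Gzmf at 46.7, 183, 7.25, 182 and 18.1 CPM and Gzmg at 40.9, 151, 7.34, 195 and 1.95 CPM in the 5 tumors. For each of these genes replicates 2 and 4 lay within the ICB range and replicates 3 and 5 below it. Replicate 1, one of the libraries that stood apart, was within the ICB range for Gzmd and Gzmg and below it for Gzmf. Prf1 stood at 24.4, 109, 20.7, 133 and 76.8 CPM, Gzmb at 52.1, 124, 27.8, 163 and 75.9 CPM and Gzma at 54.9, 44.7, 23.5, 49.1 and 28.2 CPM. In Prf1 and Gzmb, replicate 3 was the lowest and replicate 4 the highest. Gzmk stood at 1.27, 1.91, 0.619, 3.43 and 8.33 CPM, highest in replicate 5, the tumor lowest in Gzmc and Gzmg.

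Against ICB alone the fitted values in cisplatin+ICB were small next to this spread, -0.81 ± 0.80 for Gzmd, -1.07 ± 1.02 for Gzmg, -0.42 ± 0.56 for Gzmk and -0.79 ± 0.41 for Prf1. Without cisplatin+ICB replicate 1 these were -0.80 ± 0.88, -0.86 ± 1.07, -0.18 ± 0.57 and -0.54 ± 0.38. With each tumor left out in turn they ran from -1.22 to -0.44 for Gzmd and from -1.72 to -0.65 for Gzmg. For Gzmk the range was -1.20 to -0.14 and for Prf1 -1.13 to -0.54. No member passed the DEG rule by edgeR, beside 0% of genes tested called higher and 0% called lower, or by DESeq2, which called 52 genes in all. At an unadjusted p under 0.05 there were 0 members and 2839 genes. Against PBS, 6 members passed as higher, namely Gzmb (2.41 ± 0.45), Gzmd (3.72 ± 0.98), Gzme (3.71 ± 0.93), Gzmf (4.54 ± 1.05), Gzmk (3.16 ± 0.69) and Prf1 (2.81 ± 0.47), beside 4.7% of genes tested called higher and 1.4% called lower. That number was 9 without cisplatin+ICB replicate 1, 3 without cisplatin+ICB replicate 2 or 4, and 0 without PBS replicate 1, 3 or 4, and over all genes 1087 were called with every tumor, 6277 without cisplatin+ICB replicate 1, 249 and 266 without cisplatin+ICB replicates 2 and 4 and 0 without PBS replicate 1, 3 or 4. Against cisplatin alone no member passed by edgeR, beside 0% of genes called higher and 0% called lower, although 8 had an unadjusted p under 0.05 (2530 of all genes) and DESeq2 called 4 (782 of all genes). Here 4 members passed without cisplatin+ICB replicate 1 and 3 without cisplatin+ICB replicate 3, with 2114 and 536 genes called in all.

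Departure from additivity on the log2 scale was expressed as the effect of a chemotherapy in the presence of ICB minus its effect without ICB. For 5-FU this difference was -2.03 ± 0.55 for Prf1, -1.12 ± 0.37 for Gzmb, -2.36 ± 1.09 for Gzmf, -1.35 ± 1.05 for Gzmd and 0.06 ± 1.62 for Gzmk. For cisplatin it was -1.60 ± 0.61 for Prf1, -0.83 ± 0.59 for Gzmb, -2.39 ± 1.22 for Gzmd and -0.79 ± 0.90 for Gzmk. Without 5-FU+ICB replicate 5 the 5-FU value was -1.42 ± 1.06 for Gzmk, with the sign turned, -1.06 ± 0.94 for Gzmd and -2.13 ± 0.57 for Prf1. Without PBS replicate 2 it was -2.79 ± 0.94 for Gzmd, -3.48 ± 1.07 for Gzmf and -0.16 ± 1.30 for Gzmk, and the cisplatin value was -3.74 ± 1.19 for Gzmd. Without cisplatin+ICB replicate 1 the cisplatin value was -2.36 ± 1.30 for Gzmd and -1.36 ± 0.56 for Prf1. Prf1 moved up with 5-FU alone (1.33 ± 0.41 against PBS) and stood lower with 5-FU on top of ICB (-0.70 ± 0.37 against ICB), whereas Gzmd was lower in both settings (-2.63 ± 0.79 and -3.98 ± 0.76).

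Per kilobase of transcript, where levels of different genes can be set side by side, the leading member differed between PBS and ICB tumors. In PBS tumors Gzmc led at 33.3 ± 8.94 CPM per kb, followed by Gzma at 14.8 ± 5.88 and Gzmb at 11.7 ± 4.17, and Prf1 stood at 4.23 ± 0.651. In ICB tumors Gzmf (185 ± 117), Gzmg (183 ± 126) and Gzmd (171 ± 105) stood above Gzmc (129.5 ± 56.1) and Gzmb (77.5 ± 15.6), within wide SDs. In 5-FU+ICB tumors Gzmc (57.0 ± 22.4), Gzmb (52.0 ± 9.27) and Gzma (50.4 ± 16.3) were within 1 SD of each other, and Gzmf stood at 8.42 ± 5.36.

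The summed level of the 9 granzymes was 79.1 ± 40.1 CPM per kb in PBS, 859.5 ± 466 in ICB, 79.7 ± 31.5 in 5-FU and 154 ± 74.2 in cisplatin tumors. It was 200.5 ± 22.5 in 5-FU+ICB and 519 ± 405 in cisplatin+ICB tumors. Of this sum, Gzmd to Gzmg made up 66.9 ± 9.65% in ICB tumors (range 53.6 to 77.2%) and 13.6 ± 8.46% in 5-FU+ICB tumors (range 1.09 to 24.7%). Those ranges did not overlap. The share of Gzmd to Gzmg was 3.96 ± 1.25% in 5-FU tumors, lower than in any tumor treated with cisplatin alone (34.9 ± 9.51%), and in PBS tumors it ran from 5.40 to 38.5%. Gzma and Gzmk made up 43.4 ± 9.15% in 5-FU tumors and 6.31 ± 2.81% in ICB tumors, again without overlap. Within 5-FU+ICB, replicate 5 had 1.09% of Gzmd to Gzmg and 61.3% of Gzma and Gzmk, and the other 4 had 12.2 to 24.7% and 19.9 to 30.1%.

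**Figure D3:**
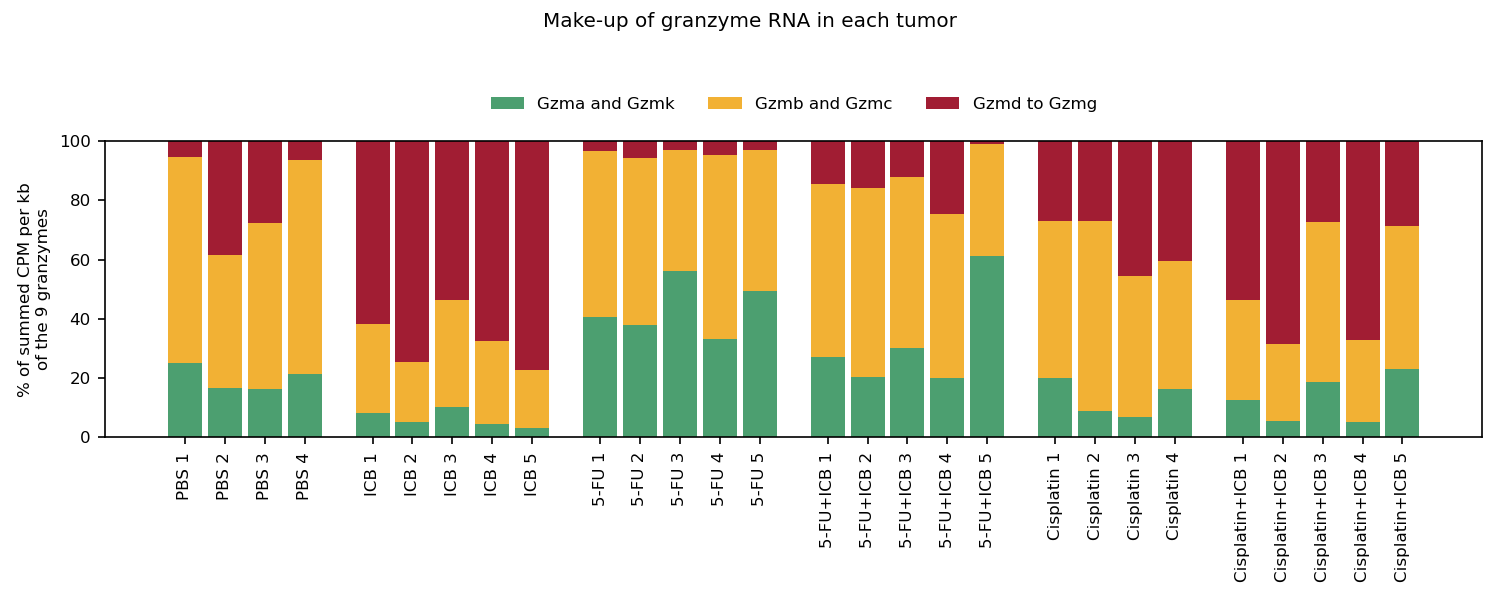
Share (%) of the summed CPM per kb of the 9 granzymes that came from Gzma and Gzmk, from Gzmb and Gzmc, and from Gzmd to Gzmg, with 1 bar per tumor and Gzmn (under 0.1%) not drawn. Gzmd to Gzmg make up 53.6 to 77.2% in the 5 ICB tumors, 2.93 to 5.73% in the 5-FU tumors and 1.09 to 24.7% in the 5-FU+ICB tumors.

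Markers of cells that can carry these genes differed between the groups too. The summed level of Cd8a and Cd8b1, which encode the CD8 chains, ran from 7.10 to 9.87 CPM in PBS, 88.5 to 315 in ICB, 9.72 to 130.4 in 5-FU, 3.73 to 12.7 in cisplatin, 17.9 to 626 in 5-FU+ICB and 5.20 to 171 in cisplatin+ICB tumors. The summed 6 NK cell markers ran from 15.0 to 41.3 CPM in PBS, 53.4 to 132 in ICB, 21.8 to 95.3 in 5-FU, 15.6 to 45.7 in cisplatin, 24.1 to 154 in 5-FU+ICB and 24.5 to 82.7 in cisplatin+ICB tumors, and the 7 mast cell markers from 46.4 to 78.0 CPM in PBS, 50.5 to 405 in ICB, 143 to 492 in 5-FU, 69.3 to 167 in cisplatin, 66.2 to 592 in 5-FU+ICB and 73.0 to 336 in cisplatin+ICB tumors. The NK cell markers did not move as one in ICB against PBS. Klrd1, Klre1 and Klrc1 were higher without overlap, beside 15.8% of all genes tested, and Ncr1, Klri2 and Klrb1f overlapped. No gene of the T cell, CD8 T cell, NK cell or mast cell lists was at 0 in every tumor of a group. The part of cell numbers in the members' levels was not tested.

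The members were also set against the mean log2 CPM of Cd8a and Cd8b1 in the same tumor. Gzmd was 0.95 ± 1.46 log2 units from the CD8 mean in ICB tumors and -3.44 ± 3.17 in 5-FU+ICB tumors, and Gzmg was 0.87 ± 1.66 and -5.75 ± 3.75. Gzmk was -4.29 ± 0.35 in ICB and -3.57 ± 0.69 in 5-FU+ICB tumors. Without 5-FU+ICB replicate 5 the 5-FU+ICB value was -2.26 ± 2.01 for Gzmd, -4.34 ± 2.37 for Gzmg and -3.87 ± 0.08 for Gzmk. Within each of these groups the SD was smaller for Gzmk than for Gzmd and Gzmg. Prf1 was 0.77 ± 0.65 and -0.16 ± 1.41, Gzmb 0.60 ± 0.84 and -0.15 ± 1.83, and Gzma -0.84 ± 1.15 and -0.76 ± 1.66. Without replicate 5 the 5-FU+ICB values were 0.22 ± 1.29 for Prf1, 0.29 ± 1.78 for Gzmb and -0.44 ± 1.72 for Gzma, so that the signs of Prf1 and Gzmb turned. Relative to the mean of the NK cell markers, Gzmd was 3.63 ± 1.12 in ICB and -0.57 ± 2.17 in 5-FU+ICB tumors (0.29 ± 1.15 without replicate 5, with the sign turned), and Gzma 1.84 ± 0.65 and 2.12 ± 0.69.

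Over the 28 tumors Spearman's rho with the CD8 mean was 0.92 for Gzmk, 0.82 for Prf1, 0.75 for Gzmb, 0.66 for Gzma, 0.17 for Gzmc, 0.17 for Gzmd, 0.28 for Gzme, 0.28 for Gzmf and 0.04 for Gzmg. With each group's mean subtracted, Pearson's r was 0.87 for Gzmk, 0.87 for Prf1, 0.55 for Gzmb and 0.39 for Gzma, and it was -0.20, -0.11, 0.02, 0.09 and -0.20 for Gzmc to Gzmg in alphabetical order. With both libraries that stood apart left out (26 tumors), rho was 0.95 for Gzmk, 0.85 for Prf1, 0.78 for Gzmb, 0.75 for Gzma, 0.39 for Gzmc, 0.35 for Gzmd, 0.45 for Gzme, 0.50 for Gzmf and 0.21 for Gzmg. The distance between Gzmk and Gzmc to Gzmg in these coefficients therefore depended in part on those libraries. These coefficients describe tumors that share treatments and library scaling, and they carry no test.

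**Figure D4:**
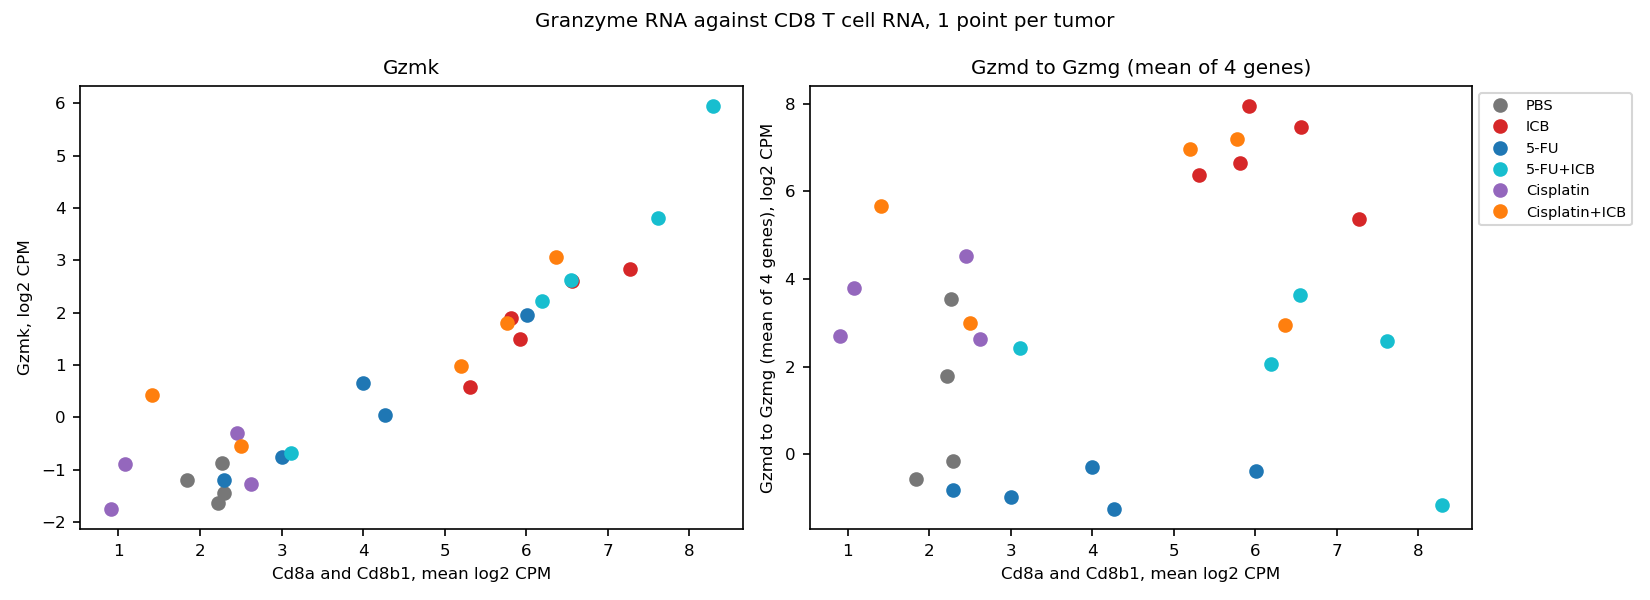
Log2 CPM of Gzmk (left) and the mean log2 CPM of Gzmd, Gzme, Gzmf and Gzmg (right) against the mean log2 CPM of Cd8a and Cd8b1, with 1 point per tumor colored by treatment group. Gzmk rises along with CD8 RNA across all groups (rho 0.92), and the mean of Gzmd to Gzmg has a rho of 0.14 (0.34 without the 2 libraries that stood apart), and in the right panel the ICB tumors lie above every PBS, 5-FU, cisplatin and 5-FU+ICB tumor and overlap the cisplatin+ICB tumors.

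Among themselves, Gzmc to Gzmg varied together. Over the 28 tumors rho was 0.98 for Gzmd and Gzme, 0.98 for Gzme and Gzmf, 0.92 for Gzmf and Gzmg and 0.88 for Gzmc and Gzmd. Within groups, as Pearson's r of deviations from group means, the same pairs gave 0.98, 0.97, 0.84 and 0.85. Gzmb was most like Prf1 (rho 0.95, within groups 0.77) although Prf1 lies on another chromosome, and less like its neighbor Gzmc (0.67, within groups 0.41). Gzmk and Gzmg had the lowest rho of all 45 pairs at 0.13, and within groups -0.31. Over the 26 tumors without the libraries that stood apart, rho was 0.98 for Gzmd and Gzme, 0.90 for Gzmf and Gzmg, 0.85 for Gzmc and Gzmd, 0.95 for Gzmb and Prf1, 0.75 for Gzmb and Gzmc and 0.24 for Gzmg and Gzmk (within groups -0.08). The part of reads shared among Gzmd to Gzmg in these coefficients was not tested.

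**Figure D5:**
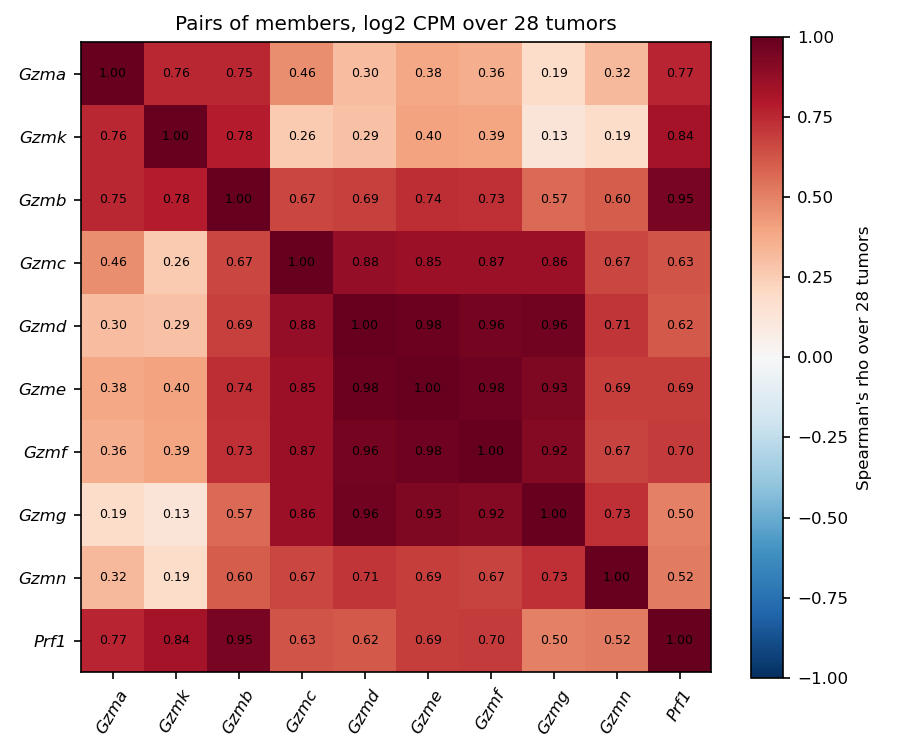
Spearman's rho of log2 CPM over the 28 tumors for each pair of the 10 genes, from -1 (blue) to 1 (red). Gzmc, Gzmd, Gzme, Gzmf and Gzmg form 1 block of pairs at or above 0.85, and Gzmk has its highest rho with Prf1 (0.84).

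The 4 paralogs were not at a fixed ratio to each other. On the log2 scale Gzmg minus Gzmd was -0.08 ± 0.23 in ICB tumors, -2.49 ± 1.23 in 5-FU tumors and -2.30 ± 0.92 in 5-FU+ICB tumors. It was -1.29 ± 0.71 in PBS, -0.78 ± 0.53 in cisplatin and -0.93 ± 1.09 in cisplatin+ICB tumors, so that Gzmg was below Gzmd on average in each group and the difference was small in ICB. Gzmd minus Gzme, the most similar pair, was 1.42 ± 0.14 in ICB and 1.11 ± 0.36 in 5-FU+ICB tumors. Without 5-FU+ICB replicate 5 the values there were -2.09 ± 0.90 for Gzmg minus Gzmd and 1.22 ± 0.30 for Gzmd minus Gzme, and without cisplatin+ICB replicate 1 Gzmg minus Gzmd was -0.84 ± 1.24 in that group.

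Of the 14414 genes tested with a mean of at least 1 CPM, genes whose pattern over the 28 tumors was most like that of a member, by Spearman's rho, differed between members. For Gzmk they were Pdcd1 (0.97), Trbc2 (0.96), Ms4a4b (0.96), for Gzmb Sp140 (0.96), Gm49339 (0.93), AA467197 (0.93), for Prf1 Acod1 (0.94), Ppp1r3b (0.94), Pdcd1lg2 (0.94) and for Gzma Fas (0.91), Il13ra1 (0.89), A530032D15Rik (0.89). For Gzmd they included Ak4 (0.89), Gsdmd (0.85), for Gzme Ak4 (0.90), Chil3 (0.88), for Gzmf Fcrl6 (0.89), Ak4 (0.86), for Gzmg Ak4 (0.91), Hps3 (0.82) and for Gzmc Cxcl3 (0.82), Ccr1 (0.79). For Gzmn, with its few counts, they included Gm49369 (0.77), Fbxw17 (0.73). Ak4, a mitochondrial adenylate kinase, was among the nearest genes to each of Gzmd, Gzme, Gzmf and Gzmg, while Pdcd1 (the PD-1 receptor) and Trbc2 (a T cell receptor constant region) were nearest to Gzmk. Over the 26 tumors rho was 0.90, 0.91, 0.87 and 0.93 for Ak4 with Gzmd, Gzme, Gzmf and Gzmg. It was 0.96 and 0.95 for Pdcd1 and Trbc2 with Gzmk, which then stood in places 4 and 8 by this measure.

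The groups were also ordered by their median CPM. For Gzmd, Gzme, Gzmf and Gzmg it ran from 5-FU over PBS, 5-FU+ICB, cisplatin and cisplatin+ICB to ICB, and each group overlapped its neighbors in that order. For Gzmk it ran from PBS over cisplatin, 5-FU, cisplatin+ICB and ICB to 5-FU+ICB, and for Gzma from PBS over cisplatin, 5-FU, ICB and cisplatin+ICB to 5-FU+ICB, also with overlap at each step. For Prf1 and Gzmb the order was PBS, cisplatin, 5-FU, cisplatin+ICB, 5-FU+ICB and ICB. In Prf1 the PBS and cisplatin tumors were separate, and in Gzmb the 5-FU+ICB and ICB tumors were.

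Partner genes that load, release, restrain and answer granzymes were tested alongside, to set the family within its pathway. Of 27 such partner genes, none of which is a member, 18 were higher and 2 lower in ICB than in PBS by the DEG rule, 9 were higher and 2 lower in 5-FU, 16 higher and 1 lower in 5-FU+ICB, 9 higher and 0 lower in cisplatin+ICB and 0 changed in cisplatin. Of all genes tested, 19% were called higher and 18.8% lower in ICB, 9.98% and 13% in 5-FU, 21.9% and 18.7% in 5-FU+ICB, 4.7% and 1.4% in cisplatin+ICB and 0% in cisplatin. None differed between 5-FU+ICB and ICB, where 2 had an unadjusted p under 0.05 and DESeq2 called 1 (1947 and 327 of all genes), or between cisplatin+ICB and ICB, where the counts were 8 and 0 (2839 and 52 of all genes). With the combinations set against their chemotherapy, edgeR called 0 in each, with 16 at an unadjusted p under 0.05 and 5 called by DESeq2 for 5-FU (2983 and 540 of all genes) and 14 and 10 for cisplatin (2530 and 782). For cisplatin against PBS the counts were 0 and 0. The median log2 fold change of the 27 was 1.40 in ICB and 1.33 in 5-FU+ICB against PBS, and 0.07 in 5-FU+ICB against ICB, next to -0.03, -0.04 and 0.02 over all genes tested. The partner count for 5-FU against PBS was 4 without PBS replicate 1 or 2, 6 without 5-FU replicate 3 and 7 without 5-FU replicate 5, and that for cisplatin+ICB against PBS was 18 without cisplatin+ICB replicate 1, 3 without cisplatin+ICB replicate 2, 4 or 5 and 0 without PBS replicate 1, 3 or 4. For 5-FU+ICB against 5-FU it was 13 without 5-FU+ICB replicate 2 and 10 without 5-FU replicate 3, and for cisplatin+ICB against cisplatin 15 without cisplatin+ICB replicate 1 and 10 without cisplatin+ICB replicate 3. The counts over all genes in these fits are those given for the members, and without cisplatin+ICB replicate 5 it was 361.

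For storage and processing, Srgn, the granule proteoglycan that binds granzymes, rose in ICB tumors by a log2 fold change of 2.40 (adjusted p = 0.00341) and in 5-FU+ICB tumors by 2.78 (adjusted p = 0.00179). Ctsc, the dipeptidyl peptidase that activates progranzymes, rose in ICB tumors by 2.07 (adjusted p = 0.000386), in 5-FU tumors by 0.87 (adjusted p = 0.048) and in 5-FU+ICB tumors by 1.53 (adjusted p = 0.00183). Srgn also rose in cisplatin+ICB by 2.11 (adjusted p = 0.011). The mannose 6-phosphate receptors Igf2r and M6pr did not pass in any comparison and stood at 0.59 and 0.44 in ICB against PBS.

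All 7 degranulation genes rose in ICB tumors, beside 19% of all genes tested. Nkg7, a granule membrane protein of cytotoxic cells, rose by 3.01 (adjusted p = 0.00311), Rab27a by 1.88 (adjusted p = 0.00339), Unc13d by 1.84 (adjusted p = 0.000853), Stxbp2 by 1.40 (adjusted p = 0.00388), Lyst by 1.35 (adjusted p = 0.00188), Lamp1 by 1.04 (adjusted p = 0.0129) and Stx11 by 0.98 (adjusted p = 0.00713). In 5-FU+ICB tumors 6 of the 7 rose (beside 21.9% of all genes), led by Nkg7 at 3.57 (adjusted p = 0.00155) and Rab27a at 2.23 (adjusted p = 0.00153), with Lamp1 short of the threshold at 0.75 (adjusted p = 0.0543). In 5-FU tumors 1 rose (beside 9.98%), Lyst at 0.79 (adjusted p = 0.0466). In cisplatin+ICB tumors 3 rose (beside 4.7%), Nkg7 (2.12), Unc13d (1.28) and Stx11 (0.75).

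Among the serpins, Serpinb9, the intracellular inhibitor of granzyme B, rose in ICB tumors by 1.67 (adjusted p = 0.00482) and in 5-FU+ICB tumors by 1.82 (adjusted p = 0.00314). Serpina3n, a secreted serpin that inhibits granzyme B, rose in ICB by 2.08 (adjusted p = 0.00503), in 5-FU by 3.27 (adjusted p = 0.00207), in 5-FU+ICB by 3.93 (adjusted p = 0.000268) and in cisplatin+ICB by 2.41 (adjusted p = 0.032). Serpinb6b (0.53) and Serpinb9b (0.09) did not pass in ICB against PBS or elsewhere.

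The substrates and death effectors of the pathway moved the other way where they moved. Gsdme, a pore-forming gasdermin, fell by 0.89 on the log2 scale in ICB tumors (adjusted p = 0.00285) and by 0.98 in 5-FU+ICB tumors (adjusted p = 0.00181), and Set fell by 0.73 in ICB tumors (adjusted p = 0.0035). In 5-FU tumors Bid fell by 0.50 (adjusted p = 0.0432). Dffa stood at 0.44 in ICB against PBS and did not pass in any comparison. Of the 6 mesothelioma markers, Msln was lower in ICB than in PBS without overlap, at 52.0 to 217 against 271 to 358 CPM, Wt1 was higher without overlap, and Krt8, Krt18, Krt19 and Upk3b overlapped. Their sum was 54.6 to 218 CPM in ICB and 273 to 361 CPM in PBS tumors, and the part of tumor cell content in these falls was not tested.

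Transcription factors known to act in cytotoxic T and NK cells rose with ICB. Tbx21 rose by 3.28 (adjusted p = 0.000899), Runx3 by 2.33 (adjusted p = 0.000702), Eomes by 1.42 (adjusted p = 0.006) and Prdm1 by 0.83 (adjusted p = 0.0365). In 5-FU+ICB tumors Tbx21 rose by 3.97 (adjusted p = 0.000484), Runx3 by 2.50 (adjusted p = 0.00068) and Eomes by 1.91 (adjusted p = 0.00135), while Prdm1 stood at 0.17 (adjusted p = 0.657). In 5-FU tumors the first 3 rose by 2.02, 1.43 and 1.33. Against ICB, the 5-FU+ICB values were 0.17 (adjusted p = 0.909) for Runx3, whose core motif is marked in the printed windows, and -0.66 (adjusted p = 0.403) for Prdm1. The value for Gzmd there was -3.98. Binding and activity of these factors were not measured, and any part of them in the levels of the members was not tested. In cisplatin+ICB against PBS 1 of the 4 rose, Tbx21 at 2.49 (adjusted p = 0.0321).

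The other effectors Ifng, Fasl and Tnfsf10 rose in ICB tumors by 5.26 (adjusted p = 2.44e-05), 2.42 (adjusted p = 0.00203) and 2.07 (adjusted p = 0.000429). They rose in 5-FU tumors by 2.69, 1.41 and 1.30, in 5-FU+ICB tumors by 4.74, 2.52 and 2.27, and in cisplatin+ICB tumors by 4.34, 1.64 and 1.22. Between 5-FU+ICB and ICB, Ifng stood at -0.53 (adjusted p = 0.69). Of the 27 partners 0 passed the test for an interaction of 5-FU with ICB by edgeR (smallest adjusted p = 0.0621, with 7 at an unadjusted p under 0.05, beside 16 of all genes called and 4283 at an unadjusted p under 0.05) and 0 for cisplatin (smallest adjusted p = 0.564, with 4, beside 0 and 1273 of all genes).

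Among the neighbors and relatives that are not members, Ctsg had the directions of Gzmd to Gzmg in ICB against PBS and in 5-FU+ICB against ICB, but not in 5-FU against PBS. Ctsg, next to Gzme on chromosome 14 (chr14:56099881-56102574), stood at 0.122, 0.237, 0.145 and 0.0332 CPM in PBS, 3.17, 18.9, 1.58, 2.25 and 8.24 CPM in ICB and 0.558, 0.0930, 0.203, 0.773 and 0.150 CPM in 5-FU+ICB tumors. ICB tumors lay above all PBS and all 5-FU+ICB tumors, and the PBS values are near the 3-count floor. Ctsg rose in ICB against PBS by 5.66 (adjusted p = 0.000819) and in cisplatin+ICB against PBS by 3.99 (adjusted p = 0.0257), and its value in 5-FU+ICB against ICB was -4.23 (adjusted p = 0.0473). In the 5-FU tumors it stood at 0.0822, 0.0360, 0.267, 0.0306 and 0.538 CPM, overlapping PBS, and its value in 5-FU against PBS was 0.46 (adjusted p = 0.747). Gzmm, a granzyme gene on chromosome 10 that was not among the members, stood at -0.14 (adjusted p = 0.737) in ICB against PBS. The mast cell chymases Mcpt4 and Cma1, encoded farther along chromosome 14, were higher in 5-FU against PBS by 1.79 (adjusted p = 0.0434) and 1.96 (adjusted p = 0.0436). Both are among the 7 mast cell markers summed above. Cma1 also rose in ICB against PBS by 1.74 (adjusted p = 0.0475) and Mcpt8 by 1.95 (adjusted p = 0.022), and in 5-FU+ICB against PBS Mcpt4 rose by 1.89 (adjusted p = 0.0214) and Cma1 by 2.25 (adjusted p = 0.0147). Mcpt2 stood at -1.08 in ICB against PBS, and the other neighbors Mcpt1, Mcpt9 and Cma2 did not pass the filter on low counts.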

How the data were processed

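Bulk tumor RNA was sequenced as single-end reads of 100 bases. The authors demultiplexed reads with bcl2fastq 2.20.0.422, quantified transcripts with kallisto 0.46.0 against GRCm38 and deposited estimated counts per gene symbol in 2 tables, 1 for 5-FU and 1 for cisplatin, which hold the same PBS and ICB tumors. The 23.7% of entries that held fractions were rounded here, and 0 count columns lacked a sample.

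Genes with low counts were removed by edgeR's filterByExpr (17916 and 17819 genes tested), libraries were scaled by TMM, and each table was fitted with edgeR 4.0.16 (quasi-likelihood test, all groups of the table, Benjamini-Hochberg adjustment, R 4.3.3) after a check on simulated data. Log2 CPM used a prior count of 2. Replicates were tumors of separate mice. The text names all members, the partner genes that were called or had the 3 largest changes in their list, and the 3 genes most like each member. Some genes that this rule names are not reported here. Members, lists and tests were chosen with earlier results of these data known, so no p-value is given for a single member, and counts of members past a threshold are a description. Alternatives were DESeq2 1.42.0, its size factors, no filter, other sets of groups, a replicate block, another prior count, each tumor left out and, chosen after seeing the data, Gzmd to Gzmg summed and levels, interactions and coefficients without the libraries that stood apart.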

Additional observations from a re-analysis of the deposited data

Results flagged for a closer look

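In 6 of the 58 combinations of gene and group, 1 tumor lay far from the others by Dixon's criterion, which by chance picks out about 1 in 20 groups. In 5-FU+ICB, replicate 5 was far below the other tumors for Gzmc (3.97 log2 CPM), Gzmd (0.10) and Gzmf (-1.09). This is the library with the least Msln and the most Cd8a of its group. In PBS, replicate 3 was the lowest for Prf1 (3.02 log2 CPM). For Gzmn, 5-FU replicate 1 (-3.38 log2 CPM) and cisplatin replicate 2 (-3.23) were the tumors of their groups with a count above 0, and each rests on 1 count.

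Relative to the mean of the PBS tumors, all 5-FU tumors were lower and all cisplatin tumors higher for Gzmd, Gzme, Gzmf and Gzmg. The mean log2 CPM of 5-FU minus that of cisplatin was -3.92 for Gzmd, -3.65 for Gzme, -3.40 for Gzmf and -5.63 for Gzmg. The PBS mean includes replicate 2, the highest PBS tumor for each of these genes, and both groups overlapped the PBS tumors in each. The share of all genes that meet the same rule was not determined. The difference between 5-FU and cisplatin was not tested, and the PBS mean is shared by both.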

How the results depend on the processing

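The sign of each member's log2 fold change held wherever it had passed the DEG rule, and 1319 alternative fold changes moved by less than the spread between replicates against 4 that moved by more, all without PBS replicate 2. The counts of members past the rule were less stable. Counts over all genes of the same fit follow in brackets. For 5-FU against PBS the count was 3 with both groups alone (3894) and 0 with all 28 tumors (825), and for partners 3 with all 28 tumors and 7 with no filter (2469). For 5-FU+ICB against ICB it was 0 with both groups alone (0), and DESeq2 called 1 partner (327). For 5-FU+ICB against 5-FU it was 0 with both groups alone (0), 8 with DESeq2 (540), 0 with DESeq2 size factors (0) and 0 with all 28 tumors (0), and DESeq2 called 5 partners. For cisplatin+ICB against PBS both groups alone gave 0 members and 0 partners (0), and DESeq2 gave 10 and 14 (2156). For cisplatin+ICB against cisplatin DESeq2 gave 4 members and 10 partners (782), and all 28 tumors gave 1 and 1 (27). With each tumor left out in turn, members ranged from 0 to 5 for 5-FU against PBS, 0 to 4 for 5-FU+ICB against ICB, 4 to 6 for 5-FU+ICB against PBS, 0 to 8 for 5-FU+ICB against 5-FU, 0 to 9 for cisplatin+ICB against PBS and 0 to 4 for cisplatin+ICB against cisplatin. Partners ranged from 4 to 11, 0 to 0, 16 to 22, 0 to 13, 0 to 18 and 0 to 15 in that order, and all genes from 1436 to 4741, 1 to 83, 5592 to 8701, 0 to 1948, 0 to 6277 and 0 to 2114. Same-numbered tumors correlated from -0.63 to 0.66 in their deviations from group means. This mixed range cannot settle whether the numbers pair tumors, and the main fits treated the tumors as unpaired. The replicate block gave 1 member and 6 partners for 5-FU against PBS (3339), 0 members for 5-FU+ICB against ICB (8) and for 5-FU+ICB against 5-FU (0), and 2 members and 1 partner for cisplatin+ICB against PBS (95). The cause of these shifts was not tested. Groups of 4 or 5 tumors and bulk RNA limit the precision, counts near 3 limit Gzmn, Gzmk and Gzmg at their low end, and reads shared among Gzmd to Gzmg limit their separate values.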
